A study of Mus musculus with 21 samples.

Results

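The proteasome subunit genes of the mouse were followed in the medial belly of the gastrocnemius, a calf muscle, over 3 groups of female mice that differed in treadmill training. Members were the rows of the deposited count table whose symbol begins with Psma, Psmb, Psmc, Psmd, Psme, Psmf or Psmg and a digit, with a mean of at least 10 counts over the 21 libraries. Psmb8 and Psmb9 were left out by name. Of 51 symbols that match, Psma8 and Psmb11 fell under the minimum, with means of 1.05 and 0.0952 counts, and the lowest member, Psme2b, had a mean of 61.2 counts. This left 47 genes of 40853 rows, and all 47 were among the 16129 genes that passed the filter on low counts. They encode 7 subunits of the alpha ring and 8 of the beta ring of the core, 6 ATPases and 11 non-ATPase subunits of the cap, 6 other caps or regulators, and 7 assembly chaperones. The other 2, Psmc3ip and Psme3ip1, encode interacting proteins that share the first letters of the symbol and are not subunits, so 45 genes are described as subunits and chaperones.

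The proteasome is the cell's main machine for the degradation of proteins tagged with ubiquitin. Its core is a barrel of stacked rings, in which outer alpha rings gate the entry and inner beta rings hold the cutting sites, and the cap binds ubiquitin chains, removes them and feeds the unfolded protein into the barrel with a ring of ATPases. In skeletal muscle it removes myofibrillar and damaged proteins, and its transcripts are known to rise in several forms of muscle wasting. The transcription factor encoded by Nfe2l1 is known to raise the transcription of many subunit genes together when proteasome capacity is short.

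All mice were C57BL/6NJ, 10 weeks old when the study began, and all took maximal running tests. The Inactive group (7 mice) stayed in standard cages without training. Mice of the Active group (7 mice) ran on the treadmill 5 days per week for 6 weeks, in sessions of up to 40 min that included a stretch at about 70% of their maximal speed, whereas those of the Activity Reduction group (7 mice) ran for 4 weeks and then stopped for 2 weeks. The muscle was taken 48 to 72 h after the last running test, so each value stems from rested and fasted mice, and each library from 1 mouse.

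The counted reads of a library summed to 38482455 at the lowest and 59785132 at the highest, with medians of 53278181 in the Inactive, 46532461 in the Active and 49829192 in the Activity Reduction group. Of 10 muscle fibre markers, 9 stood at medians between 3327 and 81420 CPM (the read count scaled to a common library size after TMM correction for composition), and Mylpf alone was low, at 2.77 CPM. Transcripts of 14 liver genes divided the libraries by the animal number in their labels. Their sum was between 650 and 1864 CPM in the 8 mice numbered up to M311 (Active replicates 1 to 5, Activity Reduction replicates 1 and 2, Inactive replicate 1) and between 138 and 291 CPM in the 13 mice numbered from M312. The number's meaning is not given in the sources used here, so values are also given within each set of mice.

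Levels of different genes were compared per length, in TPM (reads per base of transcript, scaled to a common total), with 2 lengths for each gene: all annotated exons together, or the canonical transcript. The median over the cap ATPases was 155 TPM with the exon length and 151 TPM with the canonical length. For the non-ATPase subunits of the cap these medians were 139 and 158.5 TPM, for the beta ring 131 and 149 TPM and for the alpha ring 76.1 and 96.4 TPM. Other caps and regulators stood lower, at 36.3 and 28.6 TPM, and the assembly chaperones lowest, at 7.96 and 14.1 TPM. The core and cap medians thus exceeded that of the chaperones by either length. Single genes did not all do so. Psmb2 (23.7 and 29.7 TPM) and Psmb10 (26.2 and 18.6 TPM) lay below the chaperone Psmg2 (30.2 and 30.5 TPM), and by exon length so did Psmd14. The order among the ATPases, the non-ATPase subunits and the beta ring changed with the length. With both lengths the highest member of its class was Psmc3 among the ATPases, Psmd2 among the non-ATPase subunits, Psma6 in the alpha ring, Psme4 among the other caps and Psmg2 among the chaperones. Psmd14 was the lowest non-ATPase subunit by either length, at 24.3 or 48.2 TPM.

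Promoter windows of 40 of the 47 members were found in a RefSeq table on GRCm38.p6, a build older than that of the counts, and some members had more than 1 window (44 in all). They were read for the core of the antioxidant response element, TGACNNNGC, which the factors encoded by Nfe2l1 and Nfe2l2 bind, on both strands. The motif lay in 6 of the 44 windows (13.6%) and in 12.4% of all 32851 windows, and the CCAAT box lay in 14 (31.8%) and in 37.4% of all windows. These shares lay near those of all promoters, and a match is no evidence of binding. The 5 matches upstream of a start are shown as places where this element occurs beside a subunit or chaperone gene, with the motif in capitals. A further match, in Psme4, runs across the start and is not shown.
Psmb5, GRCm38.p6 chr14:54618009-54618067, minus strand: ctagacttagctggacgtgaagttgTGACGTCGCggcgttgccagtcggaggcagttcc
Psmb6, GRCm38.p6 chr11:70525323-70525356, plus strand: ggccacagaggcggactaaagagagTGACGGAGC
Psmc6, GRCm38.p6 chr14:45329574-45329630, plus strand, motif on the other strand: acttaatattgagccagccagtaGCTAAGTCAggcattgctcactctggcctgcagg
Psmd12, GRCm38.p6 chr11:107479278-107479314, plus strand, motif on the other strand: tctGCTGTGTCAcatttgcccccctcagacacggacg
Psmd9, GRCm38.p6 chr5:123228134-123228189, plus strand: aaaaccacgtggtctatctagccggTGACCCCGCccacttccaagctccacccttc
Counted from the start of transcription, the first base of the motif lies at -47 in Psmb5, -9 in Psmb6, -31 in Psmd9, -227 in Psmc6 and -247 in Psmd12. Of the 6 genes with a match, Psmb5, Psmd12 and Psme4 were higher in the Activity Reduction than in the Active group at an unadjusted p-value under 0.05. Psmb6, Psmc6 and Psmd9 were not. At that p-value 57.4% of all 47 members and 6.89% of all genes tested were higher. The genes with a match thus did not stand out from the other members.

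Mice that stopped running were compared with mice that ran to the end to ask what 2 weeks without running left of the trained state. Transcripts of 44 of the 47 genes were higher in the Activity Reduction mice, by a median log2 difference of 0.098 (7.02%), while the median over all genes tested was -0.00065. With edgeR no member passed the thresholds of the study's methods (adjusted p < 0.05 and a log2 fold change past 0.25), and 0% of all genes did. DESeq2, run without the edgeR filter on low counts, called 1 of the 47 members (Psmd8) and 115 of 28675 genes on the 3 groups. Fitted on these 2 groups, it called 0 members and 139 of 27620 genes. Psmd2, Psmd3, Psmd4 and Psmd7 also had an adjusted p under 0.05 in the former fit and Psmd2 and Psmd4 in the latter, with log2 fold changes within 0.25. The counts of 115 and 139 genes include the fold change limit, and all genes at that adjusted p alone were not counted. At an unadjusted p-value under 0.05, 27 members (57.4%) were higher, against 6.89% of all genes tested, and 1 (Psme1) was lower, against 6.44%. The higher members were 9 of 11 non-ATPase cap subunits, 5 of 6 cap ATPases, 5 of 8 beta ring subunits, 3 of 7 alpha ring subunits, 3 of 6 other caps and 2 of 7 chaperones. The smallest adjusted p-value was 0.0750, for Psmd4 (quasi-likelihood test of edgeR, adjusted by Benjamini-Hochberg). Members share mice and so are not independent of each other. With library totals in place of TMM scaling the count of higher members was 8, against 2.59% of all genes, and 39 members lay above 0 with a median of 0.059, while the median of all genes was then -0.039.

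The excess of higher members was present in mice on both sides of the animal-number division. Among the mice numbered up to M311 (2 Activity Reduction, 5 Active), 40 of the 45 subunit and chaperone genes were higher in the Activity Reduction mice, with a median log2 ratio of 0.13, and 48.3% of all genes were. In the mice from M312 (5 Activity Reduction, 2 Active), 36 of 45 were higher, with a median of 0.083, and 50.8% of all genes were. No mouse is in both sets, and 33 genes (73.3%) were higher in both, as were 29.8% of all genes. Psmd8, Psmd10 and Psmd4 were among them, with log2 ratios of 0.43, 0.26 and 0.27 in the former set and 0.21, 0.39 and 0.13 in the latter, whereas Psme1 and Psmb10 were the only genes of the 45 that were lower in both. With the division as a covariate, 17 members were higher at an unadjusted p-value under 0.05 (5.54% of all genes), and with the 13 later mice alone 7 were (2.02%). Without Activity Reduction replicate 1 the count was 15 (6.33% of all genes), and without Active replicate 5 it was 16 (5.35%).

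**Figure D1:**
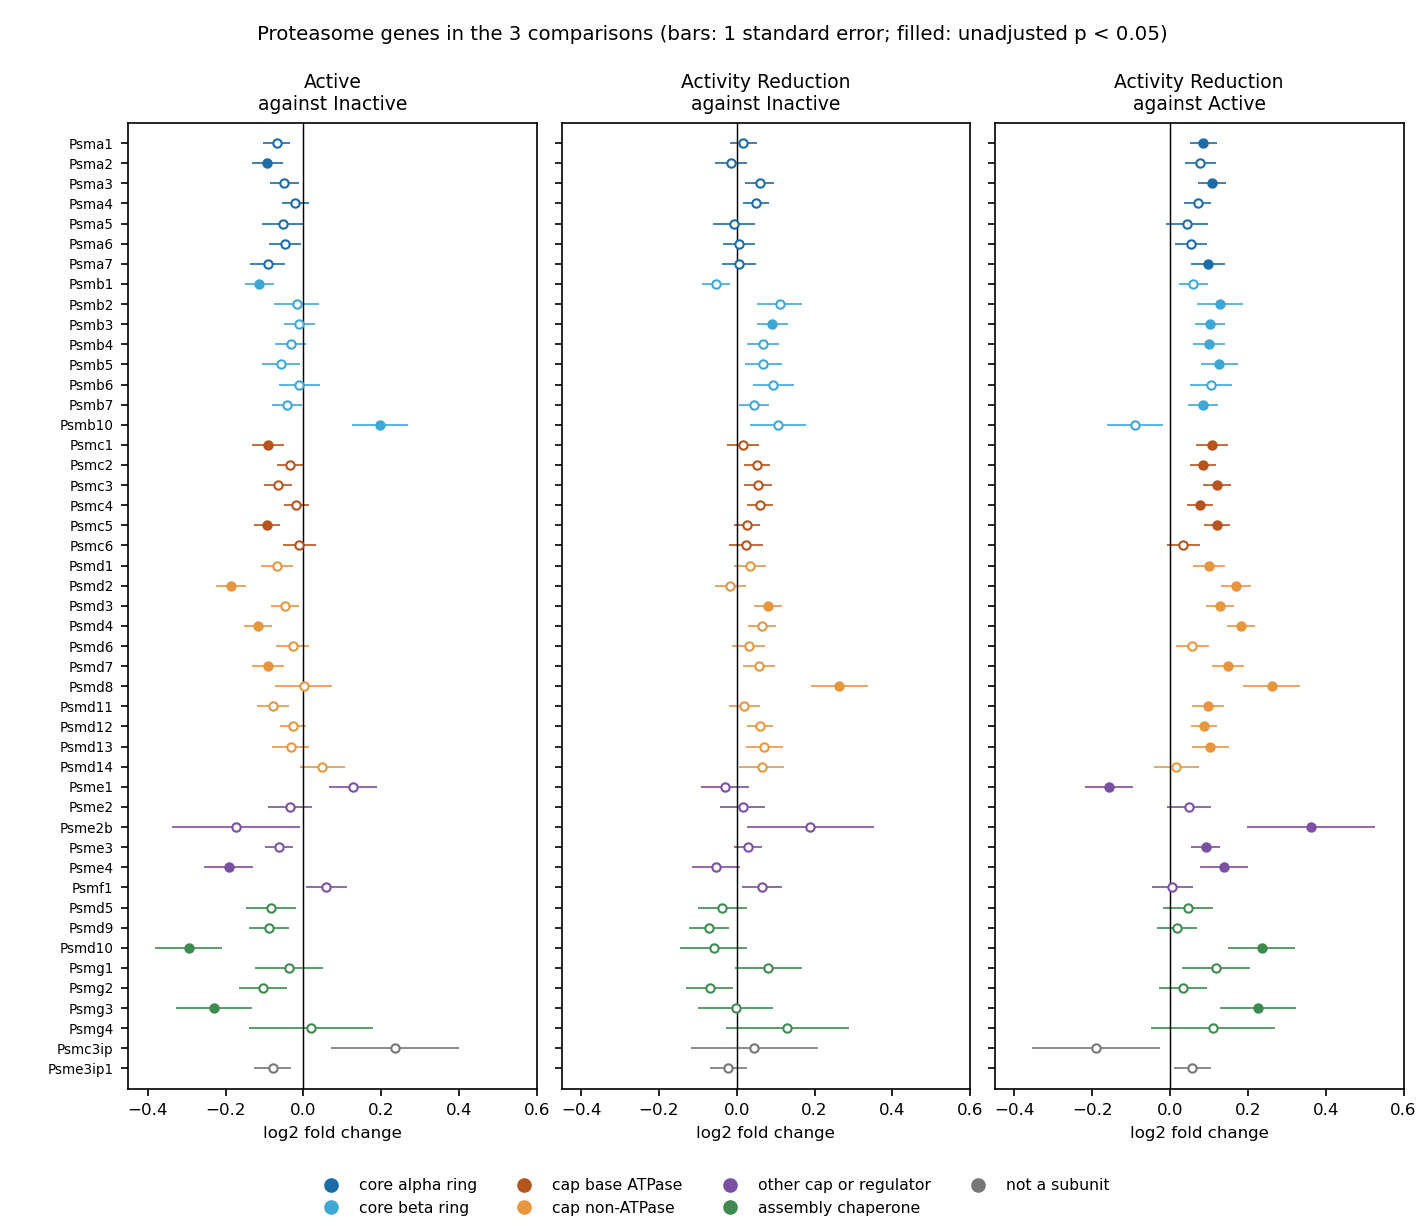
Log2 fold change (x axis) of each of the 47 genes (y axis, coloured by class) in the 3 comparisons, from edgeR, with bars of 1 standard error and filled points where the unadjusted p-value was under 0.05. In the right panel 44 points lie above 0 and 27 of the higher ones are filled, in the left panel 40 lie below 0, and in the middle panel 35 lie above 0.

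**Figure D2:**
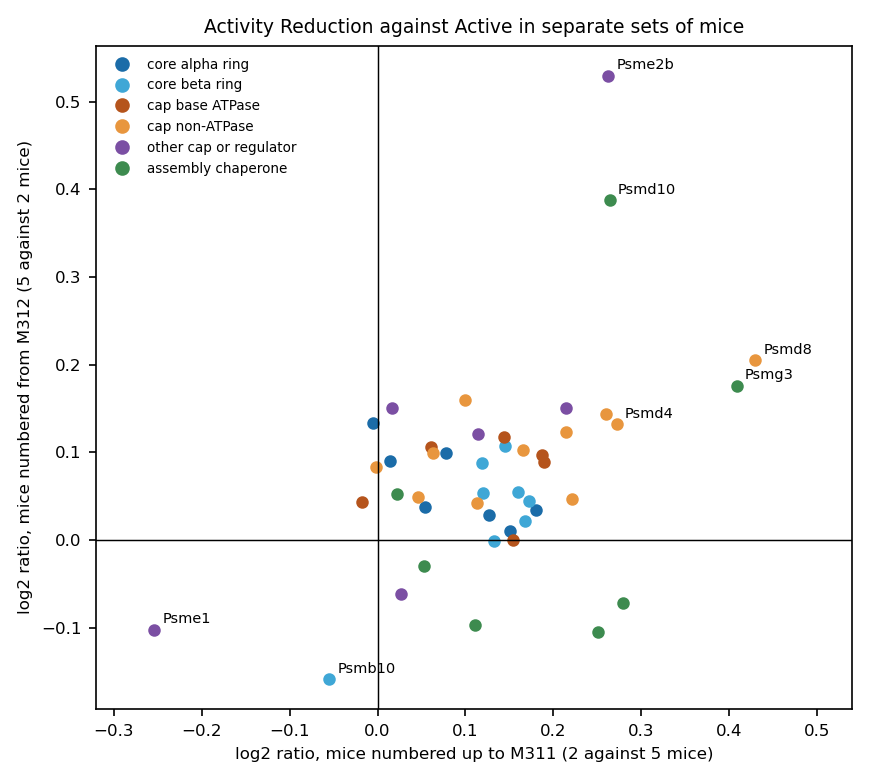
Log2 ratio of the Activity Reduction mean to the Active mean for the 45 subunit and chaperone genes in mice numbered up to M311 (x axis, 2 against 5 mice) and from M312 (y axis, 5 against 2 mice), coloured by class. In all, 33 genes lie in the upper right, and Psme1 and Psmb10 are the 2 in the lower left.

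Mice that ran for 6 weeks were compared with untrained mice to ask what training changed. Here 40 of the 47 genes were lower in the trained mice, by a median log2 difference of -0.049, against 0.0052 over all genes tested. With edgeR no member and no other gene passed the thresholds (0%). DESeq2 called 0 members and 62 of 28675 genes on the 3 groups, and 0 members and 77 of 27684 genes on these 2 groups. At an unadjusted p-value under 0.05, 10 members (21.3%) were lower, against 4.69% of all genes, and 1 (Psmb10) was higher, against 6.18%. The 10 were Psma2, Psmb1, Psmc1, Psmc5, Psmd2, Psmd4, Psmd7, Psme4 and the chaperones Psmd10 and Psmg3. Psmd2 had the smallest adjusted p-value of the members, 0.159 (edgeR), and ranked 6 among all genes. With DESeq2 the adjusted p-value of Psmd2 was 0.00708 on the 3 groups and 3.68e-05 on these 2 groups. Psme4 also had an adjusted p under 0.05 in the latter fit. Both log2 fold changes stayed within the limit of 0.25, and all genes at that adjusted p alone were not counted. With the 13 later mice alone, 6 members were lower at an unadjusted p-value under 0.05 (3.06% of all genes). Within the sets of mice, 24 of 45 genes lay above 0 and the median was 0.018 in the former (5 Active, 1 Inactive), and 38 lay below 0 with a median of -0.050 in the latter (2 Active, 6 Inactive). The single Inactive mouse of the former set had the lowest summed level of its group, 3566 CPM.

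Whether mice that had stopped running differed from mice that never trained was asked by setting Activity Reduction against Inactive. Of the 47 genes, 35 were higher in the Activity Reduction mice, by a median log2 difference of 0.044, against 0.0057 over all genes. With edgeR no member passed the thresholds, and 2 of all genes (0.0124%) did. At an unadjusted p-value under 0.05, 3 members (Psmd8, Psmb3 and Psmd3) were higher, or 6.38% against 4.19% of all genes, and 0 were lower, against 3.54%, so the count lay close to that of all genes. No member had every Activity Reduction mouse above every Inactive mouse, as 0.0682% of all genes had. Without TMM scaling 22 members lay above 0 and 25 below, with a median of -0.0014, so the direction of this small shift depends on the scaling. The Inactive mice serve in both comparisons with them, the Active mice likewise in theirs, so the 3 sets of differences are not independent. DESeq2 on the 3 groups called 1 of the 47 members, Psmd8 (adjusted p = 0.0396), and 21 of 28675 genes in all. On these 2 groups DESeq2 called 0 members and 43 of 27629 genes.

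Summed over the 45 genes, transcripts stood at 3566, 3833 and 3896 CPM (lowest, median and highest of 7 mice) in the Inactive, 3481, 3611 and 3740.2 CPM in the Active and 3670.2, 3886 and 4051 CPM in the Activity Reduction group. The Active mice had the lowest median and the Activity Reduction mice the highest, and all 3 ranges overlapped. In muscle tissue a lower sum from fewer cells of a type cannot be told apart from less RNA per cell. Of the class sums, that of the non-ATPase cap subunits stood at 1291, 1410.4 and 1428 CPM in the Inactive, 1252, 1298 and 1399 CPM in the Active and 1336, 1434 and 1509 CPM in the Activity Reduction group. Of the Active mice, 4 lay above the lowest Inactive mouse, replicate 1, and 6 Activity Reduction mice lay above every Active mouse. The ATPase sum stood at 698, 747 and 763 CPM in the Inactive, 685, 720.2 and 730.0 CPM in the Active and 718, 768 and 792 CPM in the Activity Reduction group, so that 6 Activity Reduction mice were above the highest Active mouse. The alpha ring sum stood at 523, 539.8 and 556 CPM in the Inactive, 492, 517 and 553 CPM in the Active and 532, 546 and 574 CPM in the Activity Reduction group. The beta ring sum stood at 609.6, 649 and 688 CPM in the Inactive, 601, 627 and 663 CPM in the Active and 634, 675 and 709 CPM in the Activity Reduction group. In both rings the 3 ranges overlapped. For the other caps the sum stood at 375, 401 and 417 CPM in the Inactive, 343, 362 and 391 CPM in the Active and 349, 388 and 433 CPM in the Activity Reduction group, and 1 gene, Psme4, carried most of it. The chaperone sum was 66.9, 69.8 and 74.7 CPM in the Inactive, 61.0, 65.4 and 70.1 CPM in the Active and 61.4, 70.2 and 72.9 CPM in the Activity Reduction group.

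**Figure D3:**
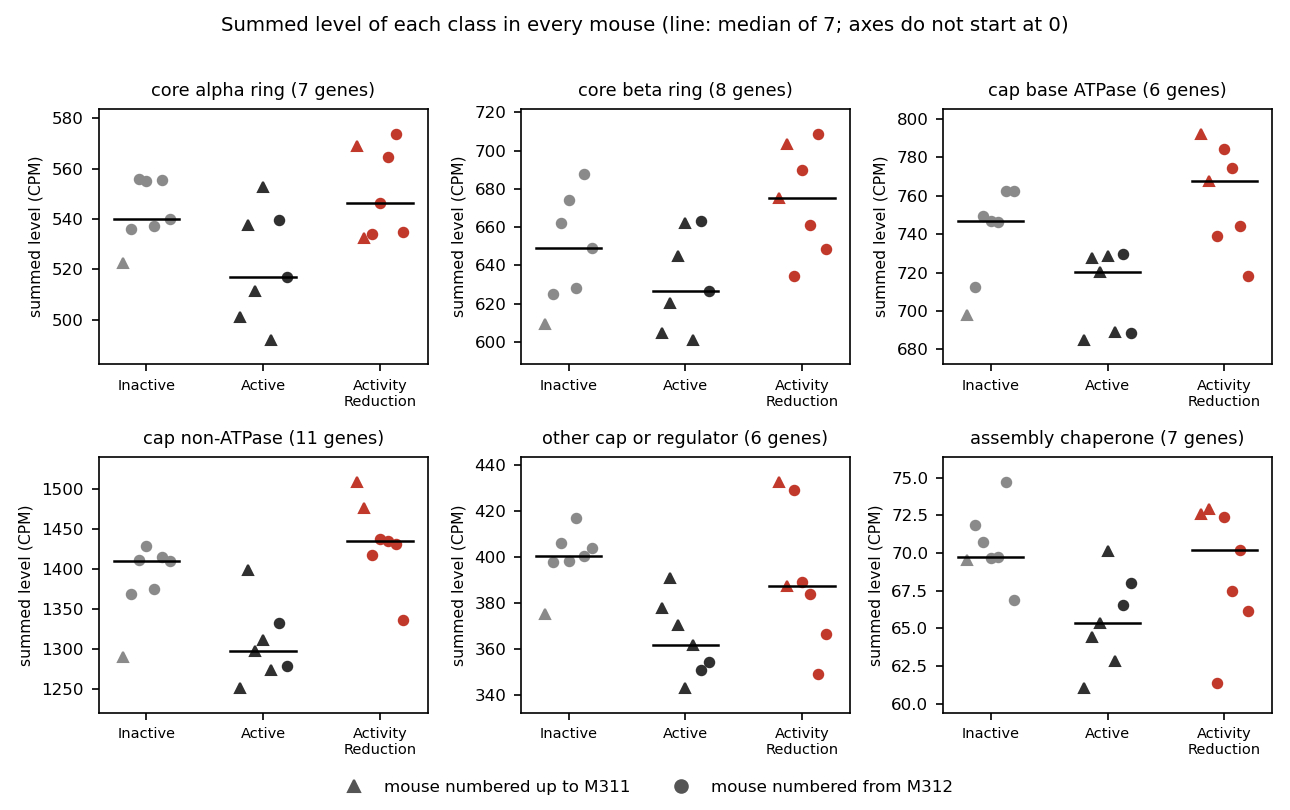
Summed level in CPM (y axis, not from 0) of each of 6 classes in every mouse of the 3 groups, with triangles for mice numbered up to M311, circles for mice from M312 and a line at the median of 7. The Active median is the lowest of the 3 in each class, and the Activity Reduction median is the highest in all but the other caps.

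Among the non-ATPase subunits of the cap, all 11 were higher in the Activity Reduction than in the Active group, and 9 at an unadjusted p-value under 0.05. Psmd4, on chromosome 3 (GRCm39 chr3:94937765-94949925, minus strand), encodes a receptor for ubiquitin chains and stood at 123, 136 and 140.3 CPM in the Inactive, 118, 123 and 132 CPM in the Active and 130.0, 141 and 150.3 CPM in the Activity Reduction group. Of the Activity Reduction mice, 6 were above every Active mouse, and replicate 1 was the only Inactive mouse within the Active range. Against Active the log2 fold change was 0.18 ± 0.036 (SE) (adjusted p = 0.0750, edgeR; exact permutation p = 0.00117, two-sided), -0.12 ± 0.036 for Active against Inactive (adjusted p = 0.273) and 0.065 ± 0.036 against Inactive (adjusted p = 0.722). With 1 mouse left out at a time, its adjusted p-value against Active by edgeR was 0.0293 without Activity Reduction replicate 7, the lowest of its group, and 0.178 without Active replicate 5, with the log2 fold change within 0.25 in both. Psmd2 (chr16:20470346-20485708, plus strand) encodes the large scaffold of the cap base, where ubiquitin shuttle factors dock, and stood at 308.9, 328 and 346 CPM in the Inactive, 274, 290.4 and 302 CPM in the Active and 300.04, 331 and 355 CPM in the Activity Reduction group. Every Active mouse was below every Inactive mouse, a separation found in this direction in 0.174% of all genes, and 5 Activity Reduction mice were above every Active mouse. The log2 fold change was -0.19 ± 0.039 for Active against Inactive (adjusted p = 0.159, edgeR; exact permutation p = 0.000583, the smallest that 7 against 7 mice allow), 0.17 ± 0.039 for Activity Reduction against Active (adjusted p = 0.105) and -0.016 ± 0.039 against Inactive. Within the sets of mice, the log2 ratio of Active to Inactive was -0.090 up to M311 and -0.22 from M312 for Psmd2, and 0.0042 and -0.12 for Psmd4, so for Psmd4 it was close to 0 in the set with the single Inactive mouse.

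Psmd8, a lid subunit (chr7:28873612-28880135, minus strand), had the smallest p-value of the members between Activity Reduction and Inactive. It stood at 76.2, 86.0 and 94.8 CPM in the Inactive, 77.1, 84.3 and 99.4 CPM in the Active and 80.6, 103 and 120.2 CPM in the Activity Reduction group. In contrast to Psmd2, its Active and Inactive ranges lay on each other, and 6 Activity Reduction mice were above every Inactive mouse. The log2 fold change was 0.26 ± 0.073 (SE) against Inactive (adjusted p = 0.335, edgeR; exact permutation p = 0.0111) and 0.26 ± 0.073 against Active (adjusted p = 0.144), and 0.0011 between Active and Inactive. DESeq2 on the 3 groups placed it past both thresholds in both Activity Reduction comparisons (adjusted p = 0.0396 and 0.0403), and DESeq2 on the 2 groups compared in neither (adjusted p = 0.157 and 0.0504). Its log2 ratio of Activity Reduction to Inactive was 0.62 in the mice up to M311 (2 against 1) and 0.16 in those from M312 (5 against 6). Psmd3, a further lid subunit, stood at 106, 114 and 117 CPM in the Inactive, 108, 108 and 110.0 CPM in the Active and 109, 118 and 132 CPM in the Activity Reduction group. The Active values lay within 3 CPM of each other, and 6 Activity Reduction mice were above all of them (log2 fold change 0.13 ± 0.036, adjusted p = 0.143, edgeR). Psmd7, the partner of the deubiquitinase Psmd14 in the lid, stood at 135, 144 and 155 CPM in the Inactive, 127, 138 and 146 CPM in the Active and 139, 149.7 and 163 CPM in the Activity Reduction group. Here 5 Activity Reduction mice were above every Active mouse (log2 fold change 0.15 ± 0.041, adjusted p = 0.143, edgeR).

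Smaller differences were measured for the lid subunits Psmd12 and Psmd11. Psmd12 stood at 94.0, 99.4 and 107 CPM in the Inactive, 90.5, 97.1 and 105 CPM in the Active and 98.4, 104 and 107 CPM in the Activity Reduction group. Psmd11 stood at 86.8, 91.8 and 95.7 CPM in the Inactive, 81.1, 86.9 and 88.9 CPM in the Active and 83.3, 91.2 and 103 CPM in the Activity Reduction group. Their log2 fold changes between Activity Reduction and Active were 0.087 ± 0.034 (SE) and 0.098 ± 0.041 (adjusted p = 0.278 and 0.308, edgeR). Psmd14, which cuts ubiquitin chains from the substrate, stood at 35.2, 38.3 and 40.3 CPM in the Inactive, 35.6, 38.9 and 42.9 CPM in the Active and 34.7, 38.3 and 44.7 CPM in the Activity Reduction group. All 3 groups overlapped, and its log2 fold change between Activity Reduction and Active was 0.016 ± 0.058, the smallest of the class. The remaining 3, Psmd1, Psmd6 and Psmd13, differed between these groups by log2 fold changes of 0.10, 0.058 and 0.10. Reads of Psmd2 can be shared with a long non-coding RNA, Gm63653, that matches 94.2% of its transcript at up to 96.11% identity, and with a pseudogene, Gm5422, that matches 90.35% at up to 95.63%, and 30.0% of the exons of Psmd13 overlap Cox8b on the other strand. Whether the counting used strand is not given in the sources used here.

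**Figure D4:**
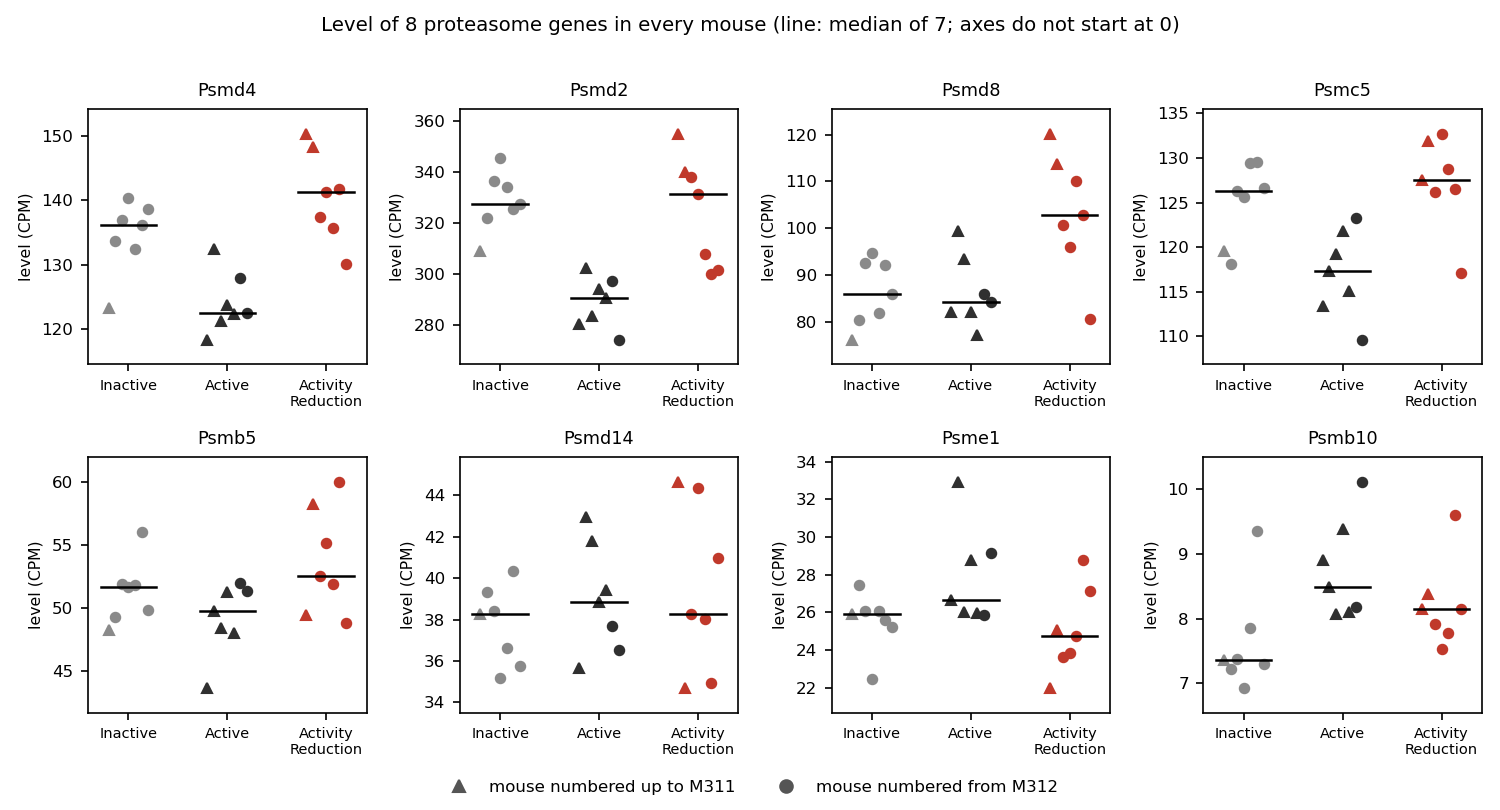
Level in CPM (y axis, not from 0) of 8 genes in every mouse of the 3 groups, with triangles for mice numbered up to M311, circles for mice from M312 and a line at the median of 7. For Psmd2 every Active mouse lies below every Inactive mouse, for Psmd8 the Active and Inactive mice overlap and 6 Activity Reduction mice lie above the Inactive range, and for Psmd14 the groups overlap.

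The cap ATPases, which unfold the substrate, lay in a narrow range, with log2 fold changes between 0.034 and 0.12 for Activity Reduction against Active. Psmc5 stood at 118, 126 and 129.5 CPM in the Inactive, 109.6, 117 and 123 CPM in the Active and 117, 128 and 133 CPM in the Activity Reduction group. Of the Activity Reduction mice, 6 were above every Active mouse, and replicate 7 was the exception. Its log2 fold change was 0.12 ± 0.034 (SE) against Active (adjusted p = 0.143, edgeR; exact permutation p = 0.00466) and -0.095 ± 0.034 for Active against Inactive (adjusted p = 0.333). Psmc3, the most abundant ATPase transcript, stood at 196, 212 and 215 CPM in the Inactive, 193, 203 and 205 CPM in the Active and 204, 213 and 235 CPM in the Activity Reduction group. Here 5 Activity Reduction mice were above every Active mouse (log2 fold change 0.12 ± 0.036, adjusted p = 0.158, edgeR). Psmc4 stood at 66.5, 68.9 and 73.1 CPM in the Inactive, 65.5, 67.4 and 73.4 CPM in the Active and 67.9, 73.7 and 76.0 CPM in the Activity Reduction group, with a log2 fold change of 0.077 ± 0.033 (adjusted p = 0.325, edgeR), which was -0.0058 in the 13 later mice alone. Psmc1, Psmc2 and Psmc6 differed by 0.11, 0.085 and 0.034 on this scale, and the first 2 of them had an unadjusted p-value under 0.05. For Psmc5, 39.5% of the exons overlap Smarcd2 on the other strand.

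In the beta ring the constitutive cutting subunits and the induced one lay on opposite sides of 0 between Activity Reduction and Active. Psmb5, the chymotrypsin-like site, stood at 48.2, 51.7 and 56.0 CPM in the Inactive, 43.7, 49.8 and 52.0 CPM in the Active and 48.8, 52.5 and 60.0 CPM in the Activity Reduction group. Psmb6, the caspase-like site, stood at 96.0, 106 and 113 CPM in the Inactive, 93.4, 107 and 111 CPM in the Active and 99.7, 112 and 125 CPM in the Activity Reduction group. Psmb7, the trypsin-like site, stood at 183, 202 and 217 CPM in the Inactive, 182, 195 and 203 CPM in the Active and 193, 205 and 215 CPM in the Activity Reduction group. In all 3, Activity Reduction had the highest median and the ranges of the 3 groups overlapped, with log2 fold changes against Active of 0.13 ± 0.049 (SE), 0.10 ± 0.054 and 0.085 ± 0.039 (adjusted p = 0.261, 0.411 and 0.343, edgeR). Psmb10 encodes the subunit that replaces Psmb7 in the immunoproteasome, the form induced by interferon, and stood at 6.93, 7.36 and 9.36 CPM in the Inactive, 8.07, 8.49 and 10.1 CPM in the Active and 7.54, 8.14 and 9.61 CPM in the Activity Reduction group. It was the 1 member higher in the Active than the Inactive mice at an unadjusted p-value under 0.05 (log2 fold change 0.20 ± 0.072, adjusted p = 0.339, edgeR). Inactive replicate 6 reached into the Active range, and against Active the Activity Reduction mice differed by -0.091 ± 0.072.

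Of the non-catalytic beta subunits, Psmb1 stood at 60.6, 65.6 and 71.3 CPM in the Inactive, 56.9, 60.6 and 63.9 CPM in the Active and 59.2, 62.9 and 66.4 CPM in the Activity Reduction group. It was lower in Active than Inactive mice by a log2 fold change of -0.11 ± 0.037 (SE) (adjusted p = 0.297, edgeR), and the Activity Reduction median lay between them. Psmb3 stood at 51.0, 53.0 and 53.9 CPM in the Inactive, 48.7, 51.6 and 58.2 CPM in the Active and 51.0, 57.2 and 59.4 CPM in the Activity Reduction group. Against Inactive, 5 Activity Reduction mice were above the whole range and 1 below it (log2 fold change 0.091 ± 0.039, adjusted p = 0.622, edgeR). Psmb2 stood at 35.9, 38.6 and 41.6 CPM in the Inactive, 34.2, 39.2 and 43.6 CPM in the Active and 38.4, 41.3 and 46.9 CPM in the Activity Reduction group, with a log2 fold change of 0.13 ± 0.058 against Active (adjusted p = 0.343, edgeR), and Psmb4 differed by 0.10. For Psmb7, 46.8% of the exons overlap Nek6 on the other strand, and the same limit on strand holds.

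Psmb8 and Psmb9, which replace Psmb5 and Psmb6 in the immunoproteasome and were left out of the members, had log2 fold changes of the same signs as Psmb10. Psmb8 (chr17:34416690-34420428) stood at 2.10, 3.16 and 4.00 CPM in the Inactive, 3.93, 4.69 and 7.16 CPM in the Active and 2.96, 4.39 and 4.88 CPM in the Activity Reduction group. Of the Active mice, 6 were above every Inactive mouse (log2 fold change 0.63 ± 0.15 (SE), adjusted p = 0.162, edgeR). Psmb9 (chr17:34400960-34406738) stood at 1.22, 1.73 and 2.09 CPM in the Inactive, 1.496, 2.53 and 2.86 CPM in the Active and 1.12, 2.20 and 2.72 CPM in the Activity Reduction group, with a log2 fold change of 0.43 ± 0.18 (adjusted p = 0.409, edgeR). Against Active, the Activity Reduction mice differed by -0.32 ± 0.15 for Psmb8 and -0.10 ± 0.18 for Psmb9.

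Expressed as reads of the induced per 100 reads of the constitutive gene, the 3 pairs gave a measure that does not depend on the scaling between libraries. For Psmb8 and Psmb5 the ratio was 4.06 to 8.10 in Inactive mice (median 6.54), 7.56 to 13.96 in Active (9.34) and 5.69 to 10.00 in Activity Reduction (7.54). Means were 6.29 ± 1.46, 10.1 ± 2.11 and 7.47 ± 1.62 (SD, n = 7), and Active exceeded Inactive (exact permutation p = 0.00175, two-sided; 0.0157 after Benjamini-Hochberg adjustment over 9 comparisons), although 1 Active mouse lay below the highest Inactive mouse. For Psmb10 and Psmb7 the means were 3.84 ± 0.357, 4.54 ± 0.483 and 4.01 ± 0.361, with Active above Inactive (exact permutation p = 0.00874, adjusted 0.0393). For Psmb9 and Psmb6 they were 1.64 ± 0.286, 2.24 ± 0.571 and 1.93 ± 0.469, and the same difference had an adjusted exact permutation p of 0.0713. Activity Reduction against Active gave adjusted exact permutation p-values of 0.0525, 0.311 and 0.0713 for the pairs of Psmb8, Psmb9 and Psmb10, and against Inactive 0.251, 0.251 and 0.387. In the 13 later mice (2 Active, 6 Inactive) the difference between Active and Inactive was 2.10 for the Psmb8 pair (exact permutation p = 0.179) and 0.877 for the Psmb10 pair (p = 0.107, exact), where the smallest p-value possible is 0.0357. These genes are known to be high in immune cells. The sum of 8 macrophage markers was 31.5 to 65.1 CPM in Inactive (median 36.1), 39.2 to 64.4 in Active (47.4) and 21.6 to 64.7 in Activity Reduction mice (33.0), and T and B cell markers were near 0, with 5 of 6 below the filter. The part of these cells in the ratios was not tested.

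**Figure D5:**
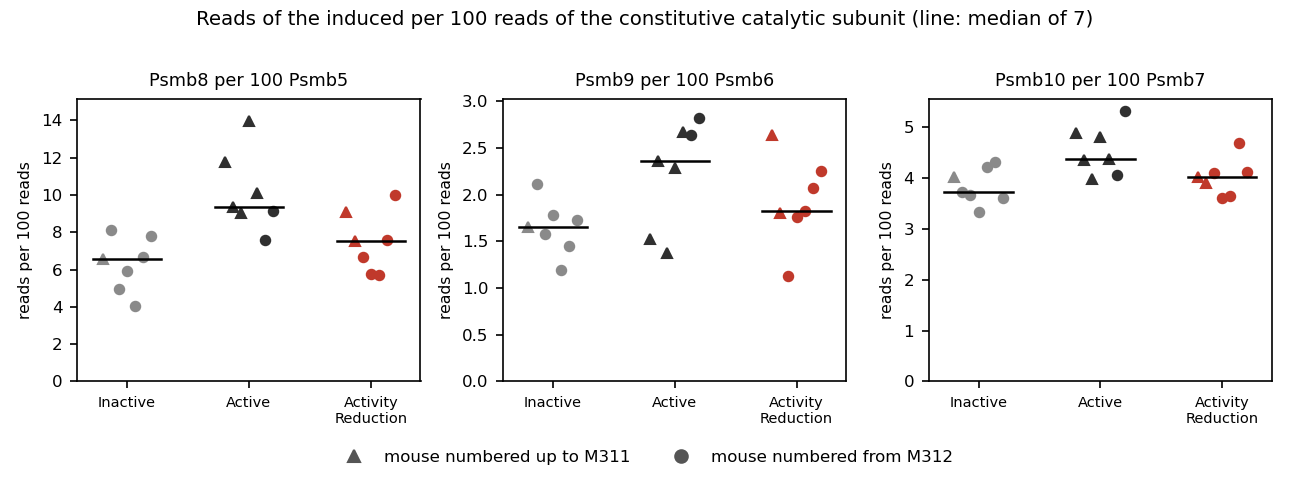
Reads of each induced catalytic subunit per 100 reads of the constitutive subunit it replaces (y axis, from 0) in every mouse of the 3 groups, with triangles for mice numbered up to M311, circles for mice from M312 and a line at the median of 7. The Active median is the highest of the 3 groups for each pair, and the ranges overlap.

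In the alpha ring, which gates the entry to the core, all 7 genes were lower in the Active than in the Inactive group, by log2 fold changes between -0.093 and -0.021, and higher in the Activity Reduction than in the Active group, by 0.045 to 0.11. Psma3 stood at 110.4, 114 and 119 CPM in the Inactive, 99.4, 112 and 117 CPM in the Active and 111, 120.0 and 127 CPM in the Activity Reduction group. Of the Activity Reduction mice, 5 were above every Active mouse (log2 fold change 0.11 ± 0.037 (SE), adjusted p = 0.209, edgeR). Psma1 and Psma7 also had an unadjusted p-value under 0.05 in that comparison, and Psma2 had one between Active and Inactive. Reads of Psma5 can be shared with Psma5-ps, which matches 64.87% of its transcript at 99.04% identity.

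The alternative caps lay on both sides of 0 between Activity Reduction and Active. Psme1, a subunit of the activator that opens the core without ATP, stood at 22.5, 25.9 and 27.5 CPM in the Inactive, 25.9, 26.6 and 32.9 CPM in the Active and 22.0, 24.8 and 28.8 CPM in the Activity Reduction group. It was the 1 member lower in Activity Reduction than in Active mice at an unadjusted p-value under 0.05 (log2 fold change -0.16 ± 0.062 (SE), adjusted p = 0.279, edgeR), and 5 Activity Reduction mice were below every Active mouse. Its partner in the same ring, Psme2, stood at 18.4, 19.2 and 20.5 CPM in the Inactive, 16.5, 18.7 and 21.7 CPM in the Active and 18.1, 18.5 and 20.9 CPM in the Activity Reduction group, with no such difference (0.049 ± 0.057). The pair lies side by side on chromosome 14 (chr14:55815190-55822034 and chr14:55824895-55829173), and 39.6% of the exons of Psme1 overlap Emc9 and 30.8% of those of Psme2 overlap Rnf31, each on the other strand. Psme2b, whose transcript matches Psme2 over 94.98% of its length, held 31 to 81 counts per library and differed by 0.36 ± 0.17.

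Psme4, which encodes the large single-chain cap and is the most abundant of these transcripts, stood at 258, 286 and 304.3 CPM in the Inactive, 221, 249 and 269 CPM in the Active and 229.5, 270.3 and 318.3 CPM in the Activity Reduction group. Of the Active mice, 5 were below every Inactive mouse (log2 fold change -0.19 ± 0.062 (SE), adjusted p = 0.295, edgeR; exact permutation p = 0.00175), and the Activity Reduction mice spread over both ranges (0.14 ± 0.062 against Active). Psme3, the nuclear activator, stood at 53.2, 56.9 and 61.3 CPM in the Inactive, 52.5, 53.1 and 58.5 CPM in the Active and 55.3, 58.2 and 61.1 CPM in the Activity Reduction group. Its difference was 0.091 ± 0.036 (log2) for Activity Reduction against Active (adjusted p = 0.285, edgeR). Psmf1, which encodes a regulator that binds the core, stood at 11.4, 12.6 and 13.3 CPM in the Inactive, 12.0, 13.1 and 14.4 CPM in the Active and 12.1, 13.2 and 14.04 CPM in the Activity Reduction group, and differed by 0.0062 ± 0.053.

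Assembly chaperones escort partial rings and are absent from the finished particle. Psmd10, known as gankyrin, escorts an ATPase of the base and stood at 5.81, 5.93 and 6.66 CPM in the Inactive, 4.36, 4.97 and 6.15 CPM in the Active and 4.90, 5.97 and 6.77 CPM in the Activity Reduction group. Of the Active mice, 6 were below every Inactive mouse, and 3 Activity Reduction mice were above every Active mouse. The log2 fold change was -0.29 ± 0.086 (SE) for Active against Inactive (adjusted p = 0.244, edgeR; exact permutation p = 0.00466) and 0.24 ± 0.086 for Activity Reduction against Active (adjusted p = 0.244). Of the other base chaperones, Psmd5 stood at 14.1, 14.9 and 17.5 CPM in the Inactive, 13.1, 13.9 and 16.2 CPM in the Active and 13.2, 14.1 and 17.2 CPM in the Activity Reduction group. Psmd9 stood at 17.7, 18.1 and 20.5 CPM in the Inactive, 16.3, 17.4 and 18.9 CPM in the Active and 16.2, 17.5 and 19.7 CPM in the Activity Reduction group. Their log2 fold changes were -0.083 ± 0.064 and -0.089 ± 0.052 for Active against Inactive, and 0.046 ± 0.064 and 0.018 ± 0.052 for Activity Reduction against Active, with no unadjusted p-value under 0.05.

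The core chaperones work in pairs, Psmg1 with Psmg2 and Psmg3 with Psmg4. Psmg3 stood at 3.85, 4.71 and 5.03 CPM in the Inactive, 3.04, 3.89 and 4.38 CPM in the Active and 3.46, 4.68 and 5.21 CPM in the Activity Reduction group. It followed the direction of Psmd10, with a log2 fold change of -0.23 ± 0.097 (SE) for Active against Inactive and 0.23 ± 0.097 for Activity Reduction against Active (adjusted p = 0.413 and 0.323, edgeR). Psmg4, its partner, stood at 1.30, 1.93 and 2.38 CPM in the Inactive, 1.12, 1.96 and 2.41 CPM in the Active and 1.42, 2.13 and 2.32 CPM in the Activity Reduction group, and differed by 0.11 ± 0.16 in the latter comparison, with a standard error that covers the value of Psmg3. Psmg1 stood at 9.08, 9.73 and 10.9 CPM in the Inactive, 7.56, 10.2 and 11.2 CPM in the Active and 9.26, 10.4 and 12.1 CPM in the Activity Reduction group. Psmg2 stood at 12.7, 13.7 and 16.0 CPM in the Inactive, 12.3, 13.4 and 14.3 CPM in the Active and 12.0, 14.1 and 15.0 CPM in the Activity Reduction group. Their log2 fold changes for Activity Reduction against Active were 0.12 ± 0.087 and 0.033 ± 0.062. The chaperones varied more between mice of a group, with a median coefficient of variation of 10.5%, than the ATPases (4.03%), the alpha ring (5.05%), the non-ATPase subunits (5.22%) or the beta ring (5.70%), and their counts were also lower. The 2 interacting proteins, Psmc3ip and Psme3ip1, differed by -0.19 ± 0.16 and 0.057 ± 0.048.

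Across the 21 mice the subunit transcripts varied together. The mean pairwise Pearson correlation of the 45 genes was 0.30, and 0.21 after group means were removed, while that over all genes tested was 0.00061. Psmd4 lay closest to the mean of the other core and cap genes (r = 0.88), followed by Psmd7 (0.85) and Psmc3 (0.83). Psmd14 (0.073), Psmf1 (0.023), Psmb10 (-0.089) and Psme1 (-0.33) did not follow it with group differences left in. After group means were removed their values were 0.059, -0.0042, 0.18 and 0.014. Those of Psmd4, Psmd7 and Psmc3 were then 0.79, 0.74 and 0.70. The value over all genes is a mean of correlations of both signs, which offset each other, and includes genes of low counts. It is therefore no matched reference for these members. The points share libraries and their scaling, so these values are descriptive.

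Partner genes without a Psm symbol were taken as 3 lists, of which 9 of 10 proteasome partners, 9 of 9 genes of the Nfe2l1 pathway and 13 of 13 ubiquitin and shuttle genes were tested. Between Activity Reduction and Active, 2, 2 and 7 of them were higher at an unadjusted p-value under 0.05 and 0 were lower (6.89% and 6.44% of all genes). Between Active and Inactive, 2 partners (Adrm1 and Ecpas), 1 gene of the Nfe2l1 list (Mafg) and 2 ubiquitin and shuttle genes (Ubb among them) were lower and 0 were higher (4.69% and 6.18%), and between Activity Reduction and Inactive 1, 3 and 2 were higher and 1 was lower (4.19% and 3.54%). Adrm1 (chr2:179813253-179818250), which encodes a further ubiquitin receptor of the cap, stood at 78.6, 83.5 and 88.6 CPM in the Inactive, 72.2, 81.3 and 82.5 CPM in the Active and 84.9, 88.9 and 100.1 CPM in the Activity Reduction group. Every Activity Reduction mouse was above every Active mouse, a separation found in 0.174% of all genes (log2 fold change 0.22 ± 0.043 (SE), adjusted p = 0.0750, edgeR; exact permutation p = 0.000583). Pomp, which encodes the factor that matures the core, stood at 51.2, 54.4 and 59.5 CPM in the Inactive, 47.3, 53.8 and 56.6 CPM in the Active and 52.3, 55.7 and 63.2 CPM in the Activity Reduction group, with a log2 fold change of 0.13 ± 0.050 (adjusted p = 0.284, edgeR). Of the deubiquitinases that bind the cap, Usp14 stood at 35.0, 39.0 and 40.3 CPM in the Inactive, 34.4, 37.9 and 42.5 CPM in the Active and 34.0, 37.3 and 41.8 CPM in the Activity Reduction group. Uchl5 stood at 25.2, 26.6 and 28.8 CPM in the Inactive, 26.8, 28.2 and 32.2 CPM in the Active and 25.4, 28.7 and 30.6 CPM in the Activity Reduction group. They differed by 0.017 ± 0.052 and -0.0047 ± 0.047 with no unadjusted p-value under 0.05 (edgeR). Ecpas, which encodes a scaffold that binds the particle, stood at 342, 352 and 369.7 CPM in the Inactive, 299, 335 and 352 CPM in the Active and 310.6, 328 and 373 CPM in the Activity Reduction group. It was lower in Active than in Inactive mice (-0.12 ± 0.043, adjusted p = 0.331, edgeR), with 6 Active mice below every Inactive mouse.

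Ubb, 1 of the ubiquitin genes, stood at 273, 312.2 and 318.1 CPM in the Inactive, 275, 281 and 292 CPM in the Active and 299, 316.99 and 331 CPM in the Activity Reduction group. Every Activity Reduction mouse was above every Active mouse, as in 0.174% of all genes (log2 fold change 0.15 ± 0.035 (SE), adjusted p = 0.100, edgeR; exact permutation p = 0.000583). The lowest Inactive mouse, replicate 1, lay below the Active range.

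Rad23b encodes a shuttle factor that carries tagged proteins to the cap, and stood at 144, 164 and 169 CPM in the Inactive, 142, 155 and 162 CPM in the Active and 153, 166 and 184 CPM in the Activity Reduction group. Of the Activity Reduction mice, 6 were above every Active mouse (log2 fold change 0.13 ± 0.043 (SE), adjusted p = 0.184, edgeR). Vcp, which encodes the ATPase that extracts tagged proteins from complexes, stood at 431, 452 and 483 CPM in the Inactive, 430.0, 447 and 461 CPM in the Active and 451, 476 and 498 CPM in the Activity Reduction group. Its cofactor gene Ufd1 stood at 28.5, 30.6 and 32.8 CPM in the Inactive, 28.3, 29.7 and 32.3 CPM in the Active and 28.6, 32.4 and 35.9 CPM in the Activity Reduction group. Nploc4, the other cofactor gene, stood at 70.7, 78.2 and 84.6 CPM in the Inactive, 72.5, 77.2 and 87.5 CPM in the Active and 81.9, 84.7 and 92.2 CPM in the Activity Reduction group. The 3 differed between Activity Reduction and Active by 0.089 ± 0.031, 0.12 ± 0.048 and 0.11 ± 0.048, and Nploc4 by 0.16 ± 0.048 against Inactive (adjusted p = 0.387, edgeR). Ubqln4, a further shuttle factor, stood at 111, 112 and 117 CPM in the Inactive, 102, 106 and 115 CPM in the Active and 101, 117 and 127 CPM in the Activity Reduction group, and differed by 0.11 ± 0.045 against Active (adjusted p = 0.301, edgeR).

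Nfe2l1, the transcription factor gene, stood at 732, 756 and 820.2 CPM in the Inactive, 732, 783 and 831 CPM in the Active and 774, 799.6 and 852 CPM in the Activity Reduction group. The 3 ranges overlapped, and its log2 fold change was 0.055 ± 0.036 (SE) between Activity Reduction and Active (adjusted p = 0.533, edgeR). Transcript levels do not show its activity, since the protein is known to be controlled by its processing and turnover. Mafg, which encodes a small partner of this factor, stood at 77.0, 82.9 and 90.0 CPM in the Inactive, 75.1, 77.2 and 83.8 CPM in the Active and 82.5, 86.5 and 95.4 CPM in the Activity Reduction group. Here 6 Activity Reduction mice were above every Active mouse (log2 fold change 0.17 ± 0.040, adjusted p = 0.105, edgeR). Keap1, which encodes the adaptor that marks the Nfe2l2 protein for degradation, stood at 88.5, 93.5 and 98.2 CPM in the Inactive, 87.7, 91.2 and 95.3 CPM in the Active and 92.2, 97.5 and 111 CPM in the Activity Reduction group. Mafk, a small partner like Mafg, stood at 21.4, 27.2 and 33.2 CPM in the Inactive, 26.2, 27.2 and 31.2 CPM in the Active and 25.7, 31.0 and 35.4 CPM in the Activity Reduction group. Keap1 differed by 0.14 ± 0.041 against Active (adjusted p = 0.154, edgeR) and Mafk by 0.17 ± 0.078 against Inactive (adjusted p = 0.644, edgeR).

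Medians of some marker sums of other cell types also differed between the groups, with ranges that overlapped. The sum of 14 liver transcripts had a median of 219 CPM in Inactive, 1378 in Active and 285 in Activity Reduction mice, and 5 of the 7 Active mice were numbered up to M311. Endothelial markers (5 genes) had medians of 183, 199 and 179 CPM and fibroblast markers (5 genes) 222, 233 and 190 CPM, in the same order of groups. Adipocyte markers had medians of 34.4, 33.2 and 34.8 CPM and Schwann cell markers 55.8, 64.4 and 71.3 CPM, again in that order. TMM factors had medians of 1.01, 1.01 and 0.974. The part of these in the proteasome differences was not tested beyond the values within each set of mice and without TMM scaling given above.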

How the data were processed

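Poly(A) RNA of 21 muscles was sequenced in pairs of reads, and fastp, RNA STAR with the GRCm39 genome and featureCounts were used by the authors for trimming, alignment and counting, as the study's methods state. The deposited values are whole-number counts per gene, not normalized, given in 2 tables that hold the same 857913 counts. Tool versions, the annotation and the strand setting used for counting are not given in the sources used here. Of the columns, 0 lacked a sample, and each column belonged to 1 mouse, whose group came from its label.

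Counts were fitted with edgeR 4.0.16 in R 4.3.3 (filterByExpr, TMM, quasi-likelihood test, 1 model of the 3 groups), and p-values were adjusted over 16129 genes by Benjamini-Hochberg. A gene was called at an adjusted p under 0.05 and a log2 fold change past 0.25. Since the study's methods do not name the scale of their limit of 0.25, log2 was taken. CPM are counts over the TMM-scaled library size. Exact permutation tests compared mean CPM of 7 against 7 mice, two-sided, over 3432 splits, so the smallest p possible is 0.000583. Lengths were taken from GENCODE vM39 and matched 32251 of 40853 symbols and all 47 members. DESeq2 1.42.0, other scalings, no filter, the animal-number division, a replicate block and leaving out each mouse were run as alternatives, and the test was checked on simulated data. P-values set the difference between groups against the spread between mice. Between libraries the correlation was 0.965 to 0.989, and 0 pairs were identical.

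Given by name in each comparison were the 8 members with the smallest p, the catalytic, receptor and alternative cap subunits, the chaperones, and partner genes at an unadjusted p under 0.05, of which some are not reported here. The members and lists were chosen with earlier results of these data known. The ratios of induced to constitutive subunits and the canonical length were added after the data were seen.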

Additional observations from a re-analysis of the deposited data

Results flagged for a closer look

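Of 162 sets of 7 values examined (each of the 47 members and each sum in each group), 8 held a mouse that stood apart from the other 6 by Dixon's criterion, where chance gives about 5%, or 8.1 sets. Psmb10, the induced beta subunit, had a high mouse in both groups with lower levels. Activity Reduction replicate 6 was at 9.61 CPM, with the nearest mouse at 8.39 CPM, and Inactive replicate 6 at 9.36 CPM, with the nearest at 7.86 CPM. Among the cap ATPases, Psmc2 was at 130.8 CPM in Activity Reduction replicate 5 (nearest 120.0 CPM) and Psmc5 at 117 CPM in Activity Reduction replicate 7 (nearest 126 CPM). For Psmd11, a lid subunit, Active replicate 1 was low, at 81.1 CPM (nearest 86.2 CPM). The chaperone Psmd5 was high in Inactive replicate 3, at 17.5 CPM (nearest 15.1 CPM). Inactive replicate 1, the only Inactive mouse numbered up to M311, was low for Psme4, at 258 CPM (nearest 285 CPM), and for the sum of the non-ATPase cap subunits, at 1291 CPM (nearest 1369 CPM).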

How the results depend on the processing

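In no refit did the median of the members change direction between Activity Reduction and Active or between Active and Inactive, but within the mice up to M311 alone (5 Active, 1 Inactive) the latter median was 0.018 (log2). With library totals in place of TMM, the median between Activity Reduction and Inactive was -0.00144 (log2). There 1 member was higher and 2 lower at an unadjusted p-value under 0.05, against 1.72% and 8% of all genes. Between Active and Inactive 2 were higher (5.38% of all genes), and between Activity Reduction and Active 8 were (2.59%). Without the filter on low counts, 1 member was higher between Activity Reduction and Inactive (3.63% of all genes). In the 13 later mice, counts of higher and lower members were 0 and 6 for Active against Inactive (3.02% and 3.06% of all genes). They were 1 and 1 for Activity Reduction against Inactive (4.09% and 3.8%), and 7 and 0 for Activity Reduction against Active (2.02% and 2.39%). The log2 fold change of Psmc4 was -0.0058 in the latter. In these mice the Active minus Inactive ratios were 2.10 (Psmb8 to Psmb5) and 0.877 (Psmb10 to Psmb7), with fewer mice. With the division as a covariate, 17 were higher between Activity Reduction and Active (5.54% of all genes). DESeq2 on the 3 groups called 1 member, Psmd8, in each comparison with Activity Reduction, against 21 (Inactive) and 115 (Active) of 28675 genes. On 2 groups it called 0 members, against 43 of 27629 and 139 of 27620 genes. The canonical length gave median TPM of 14.1 for chaperones, 158.5 for non-ATPase, 96.4 for alpha, 149 for beta and 28.6 for other cap genes. Leaving out 1 mouse at a time gave 1 to 2 higher and 7 to 13 lower for Active against Inactive. The shares of all genes were 4.47% to 9.18% and 3.84% to 5.65%. For Activity Reduction against Inactive it gave 1 to 5 higher (2.54% to 5.13% of all genes). The count was 1 without Activity Reduction replicate 1 or 6 or Inactive replicate 2, and 5 without Activity Reduction replicate 3. For Activity Reduction against Active it gave 15 to 27 higher and 0 to 2 lower (5% to 7.01% and 5.27% to 7.59% of all genes). The lower count was 0 without Active replicate 2, and 2 without Activity Reduction replicate 4. With group means removed, same-numbered mice of different groups had a median correlation of 0.0122 (lowest -0.222, highest 0.471). Mice of different numbers had -0.00327 (lowest -0.565, highest 0.512). Such medians show no pairing by replicate number but cannot exclude one. With a replicate block, 2 members were higher and 9 lower for Active against Inactive (8.1% and 4.47% of all genes). The counts were 2 and 0 for Activity Reduction against Inactive (4.23% and 3.39%), and 27 and 1 for Activity Reduction against Active (6.71% and 7.85%). Why these values moved was not tested. With 7 mice per group and standard errors of 0.033 and more (log2), differences of the size seen here lie near what these fits resolve, and the least abundant members, such as Psme2b, are the least precise.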
